A study of Mus musculus with 8 samples.

Results

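The genes described here are 34 ribosome biogenesis factors, chosen by gene symbol from the 47719 genes of the deposited mouse liver table. All 34 were in the table, and all 34 were among the 12340 genes kept for testing, those at 1 FPKM or more in 2 or more libraries. FPKM divides the fragments of a gene by its length and by the size of the library, so levels can be compared between genes. Their expression was measured by RNA sequencing in 8 libraries from livers of wild type C57BL/6 mice. The study concerns capsules of human hepatocyte organoids as a treatment for liver failure. There were 2 libraries from day 14 after an extended hepatectomy, in which a surgeon takes out most of the liver, 4 libraries from day 2 after it, and 2 libraries from normal control mice aged 10 weeks. For the operated mice the age labels give only the time since surgery. The design text names EMC-treated and eLO-treated mice at day 2 and eLO-treated mice alone at day 14, but the day 2 labels do not say which mouse had which. Surgery, time and treatment therefore cannot be told apart in these comparisons. The title of day 2 replicate 1 reads day 1 although its age label reads day 2, and the title of day 2 replicate 3 carries the unexplained letters TVR. Nothing in the labels states that each library is a different mouse, so the p-values measure only the spread between these libraries.

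Ribosomes are built in the nucleolus. RNA polymerase I transcribes a long precursor rRNA, small nucleolar ribonucleoproteins (snoRNPs) guide its chemical modification and cleavage, and a large set of assembly factors folds it with ribosomal proteins into the small 40S and the large 60S subunit before most of them leave. Liver that regrows after partial removal makes new ribosomes before and during cell division, and many of these factors are known targets of the transcription factor Myc.

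Hepatocyte markers were abundant in every library, at a summed 81516 and 86907 FPKM at day 14, 43017 to 78217 FPKM at day 2 and 58852 and 61844 FPKM in controls, so the tissue label held. The day 2 libraries stood apart from each other in 14 cell division markers. Their sum was 34.02 and 46.3 FPKM at day 14 and 37.9, 25.4, 779.7 and 1118 FPKM in day 2 replicates 1 to 4, against 36.4 and 37.0 FPKM in controls. Total FPKM ranged from 686332 to 1298000 per library, and the read depth behind the values is unknown. In bulk tissue fewer cells of a type and less RNA per cell cannot be told apart.

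After hepatectomy more of the factors were called higher than lower. At day 2 against control 11 of 34 were called higher and 0 lower by limma at an adjusted p under 0.05, where 9.72% of all genes tested were called higher and 11.5% lower. At an unadjusted p under 0.05 the counts were 16 higher and 0 lower. The share of all genes at that looser threshold was not counted, for this or any later unadjusted count. These counts therefore cannot be set against the shares of adjusted calls. At day 14 against control 5 were called higher and 1 lower, where the shares over all genes were 5.21% and 4.58%. For day 14 against day 2 few members were called, 1 higher and 2 lower, where 9.09% and 7.03% of all genes were. The median log2 difference of the members was 0.36 at day 14 and 0.54 at day 2 against the same 2 controls, beside -0.0021 and 0.054 over all genes. For day 14 against day 2 it was -0.05, beside -0.03 over all genes. These and all later differences are on the log2(FPKM + 1) scale, which understates the change of low genes.

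Where the libraries of a group did not overlap the controls, the members lay above more often than below. All genes split about evenly. In 20 of 34 members both day 14 libraries lay above both controls, against 35.3% of all genes, and in 6 they lay below, against 35.7%. In 20 members all 4 day 2 libraries lay above both controls, against 26.1% of all genes, and in Dkc1 alone they lay below, against 25.4%. Both day 14 libraries lay above all day 2 libraries in 5 members and below them in 7, against 21.2% and 20.4% of all genes. Summed over the 34 members, expression was 719.8 and 725.2 FPKM at day 14 and 849.2, 885.5, 724.7 and 748.4 FPKM in day 2 replicates 1 to 4, against 470.0 and 497.6 FPKM in controls. Day 2 replicates 1 and 2, with division markers near the control level, thus had the highest sums, and all 6 hepatectomy libraries lay above both controls.

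**Figure D1:**
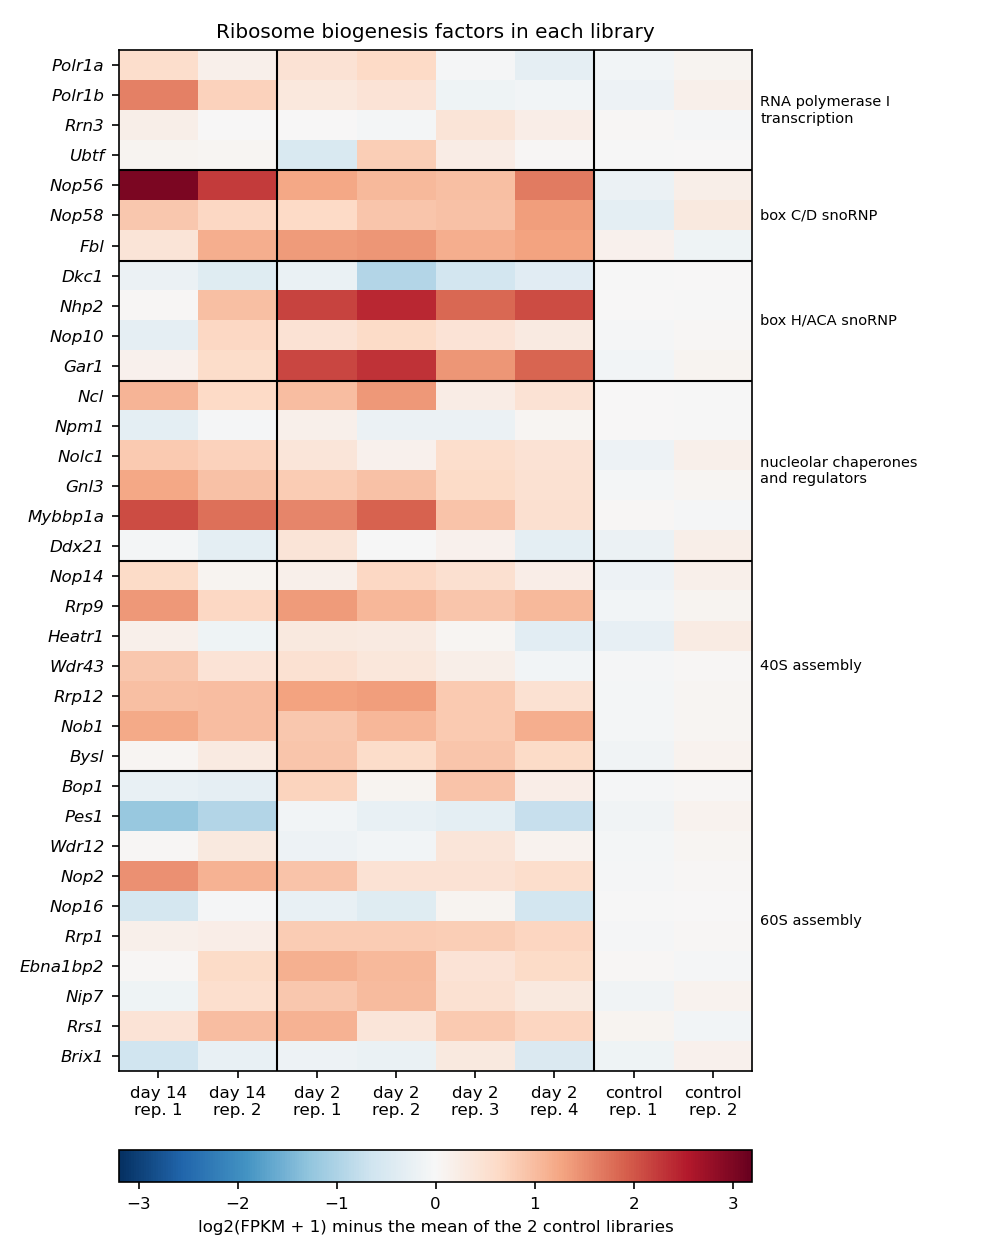
Level of each of the 34 members (rows, by role) in each of the 8 libraries (columns), as log2(FPKM + 1) minus the mean of the 2 controls; red is higher and blue lower. Nop56 is darkest at day 14 and Nhp2 and Gar1 at day 2, while Pes1 and Dkc1 are blue after hepatectomy.

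RNA polymerase I transcription was represented by 4 members, and none was called in any comparison. The medians were 0.24 at day 14 and 0.15 at day 2 against control, and 0 members at day 2 and 1 at day 14 had an unadjusted p under 0.05. Ubtf, the upstream binding factor that keeps rRNA genes in an open state and the most abundant of the 4, had 18.1 and 17.8 FPKM at day 14 and 11.8, 30.4, 20.4 and 17.6 FPKM at day 2, against 16.9 and 17.2 FPKM in controls. Its day 2 libraries lay on both sides of the controls, with a log2 difference of 0.15 ± 0.33 (SE). Polr1b, a catalytic core subunit of the polymerase, had 18.2 and 9.42 FPKM at day 14 and 4.67 to 7.53 FPKM at day 2, against 4.55 and 6.04 FPKM in controls. Both day 14 libraries were above all others, and day 14 replicate 1 was the highest, but the difference of 1.18 ± 0.35 against control had an adjusted p of 0.070. Polr1a, the largest subunit, and Rrn3, which brings the polymerase to the promoter, had differences from 0.11 to 0.37 in both comparisons with control.

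The box C/D snoRNPs guide ribose methylation of rRNA. The 3 members here were all called higher at day 2, and Nop56 was also called at day 14. Nhp2l1, a further core protein of the particle that is not among the 34 members, had 15.7 and 27.6 FPKM at day 14 and 42.0, 33.2, 46.4 and 41.9 FPKM at day 2, against 24.3 and 25.4 FPKM in controls. It was not called at day 2 (0.69 ± 0.27, adjusted p = 0.099) and was called lower at day 14 than at day 2 (-0.93 ± 0.27, adjusted p = 0.049). Nop56 and Nop58 form the scaffold of the particle and Fbl, fibrillarin, is its methyltransferase. Nop56 had 104 and 60.5 FPKM at day 14 and 29.6, 25.7, 24.3 and 40.2 FPKM at day 2, against 10.3 and 13.8 FPKM in controls. The 3 groups did not overlap, and the level was lowest in controls and highest at day 14. The log2 difference was 2.63 ± 0.35 at day 14 (adjusted p = 0.017) and 1.23 ± 0.31 at day 2 (adjusted p = 0.027) against control, and the day 14 level exceeded that of day 2 by 1.41 ± 0.31 (adjusted p = 0.021). Without day 14 replicate 1 the differences were 2.24 against control and 1.02 against day 2 and were not called, where 0 of all genes were called against control and 15 were called higher against day 2.

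Nop58 and Fbl were called at day 2 and not at day 14. Nop58 had 32.8 and 28.3 FPKM at day 14 and 27.8, 33.2, 34.6 and 45.8 FPKM at day 2, against 13.8 and 21.99 FPKM in controls. Its difference was 0.95 ± 0.27 at day 2 (adjusted p = 0.042) and 0.77 ± 0.31 at day 14 (adjusted p = 0.147). Fbl had 28.7 and 49.2 FPKM at day 14 and 57.3, 58.8, 49.3 and 54.1 FPKM at day 2, against 23.7 and 19.5 FPKM in controls. All hepatectomy libraries were above both controls, and the 4 day 2 libraries were close together, at 54.9 ± 4.19 FPKM (SD, n = 4). The difference of Fbl was 1.31 ± 0.26 at day 2 (adjusted p = 0.012) and 0.78 ± 0.29 at day 14 (adjusted p = 0.120). Between day 14 and day 2, Nop56 was called higher at day 14, while the difference was -0.19 ± 0.27 for Nop58 and -0.53 ± 0.26 for Fbl, neither called.

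The box H/ACA snoRNPs guide the conversion of uridine to pseudouridine in rRNA, and the same 4 core proteins also belong to telomerase. Nhp2 and Gar1 were the 2 members with the largest difference at day 2, and both were called lower at day 14 than at day 2. Nhp2, which binds the guide RNA, had 23.3 and 45.1 FPKM at day 14 and 105, 124, 83.4 and 99.4 FPKM at day 2, against 22.9 and 22.2 FPKM in controls. Gar1, which helps release the modified RNA, had 9.74 and 13.6 FPKM at day 14 and 41.9, 47.1, 24.9 and 34.4 FPKM at day 2, against 8.17 and 9.26 FPKM in controls. For both genes every day 2 library lay above all other libraries, and day 14 replicate 1 was close to the controls.

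The day 2 difference against control was 2.13 ± 0.30 for Nhp2, a 4.38-fold difference in FPKM + 1 (adjusted p = 0.0045). For Gar1 it was 1.94 ± 0.29, a 3.83-fold difference in FPKM + 1 (adjusted p = 0.0055). At day 14 the difference was 0.51 ± 0.34 for Nhp2 and 0.37 ± 0.33 for Gar1, with adjusted p of 0.363 and 0.500. The day 14 level fell by 1.62 ± 0.30 for Nhp2 and by 1.57 ± 0.29 for Gar1 relative to day 2 (adjusted p = 0.013 for each), and both calls were lost without day 14 replicate 1, at -1.16 for Nhp2 and -1.35 for Gar1. The other 2 proteins of the particle were not called. Dkc1, dyskerin, the pseudouridine synthase, had 5.10 and 4.30 FPKM at day 14 and 4.99, 2.61, 3.64 and 4.39 FPKM at day 2, against 5.87 and 5.99 FPKM in controls. It was thus below both controls in all 6 hepatectomy libraries, at -0.29 ± 0.28 at day 14 and -0.52 ± 0.24 at day 2 (adjusted p = 0.533 and 0.149). Nop10, the smallest of the proteins, had 34.6 and 67.0 FPKM at day 14 and 51.8 to 64.7 FPKM at day 2, against 41.0 and 43.5 FPKM in controls. Its day 2 libraries lay above the controls while the day 14 libraries lay on both sides of them.

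The promoters of the 3 snoRNP genes whose day 14 and day 2 levels differed are shown because the genes moved in opposite directions between those days. Each window runs from 250 bases before to 50 bases after the transcription start of the RefSeq model on GRCm38.p6 and is written on the gene's own strand. Nhp2 lies at chr11:51619523-51619822 on the plus strand, Gar1 at chr3:129831347-129831646 on the minus strand and Nop56 at chr2:130274162-130274461 on the plus strand. Capitals mark the hexamers CACGTG, the E-box that Myc and related factors can bind, and CGCGAG or its reverse complement CTCGCG, a CpG-containing hexamer.
Nhp2: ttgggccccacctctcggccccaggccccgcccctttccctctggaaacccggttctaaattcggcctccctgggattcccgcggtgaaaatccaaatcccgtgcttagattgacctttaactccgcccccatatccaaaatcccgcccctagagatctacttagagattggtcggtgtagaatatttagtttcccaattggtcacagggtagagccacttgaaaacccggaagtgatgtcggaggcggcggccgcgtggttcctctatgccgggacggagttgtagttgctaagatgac
Gar1: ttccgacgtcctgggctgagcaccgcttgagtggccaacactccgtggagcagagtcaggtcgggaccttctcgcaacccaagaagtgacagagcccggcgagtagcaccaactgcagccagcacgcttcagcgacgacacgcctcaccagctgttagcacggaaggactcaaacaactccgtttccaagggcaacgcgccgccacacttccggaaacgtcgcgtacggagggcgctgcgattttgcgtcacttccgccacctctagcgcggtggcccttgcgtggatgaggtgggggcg
Nop56: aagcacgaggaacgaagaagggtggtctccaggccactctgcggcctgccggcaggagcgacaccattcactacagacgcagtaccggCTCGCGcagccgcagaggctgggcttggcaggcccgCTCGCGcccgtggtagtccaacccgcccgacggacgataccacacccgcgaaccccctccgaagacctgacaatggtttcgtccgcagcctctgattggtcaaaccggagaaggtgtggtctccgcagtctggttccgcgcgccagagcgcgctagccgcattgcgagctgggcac
The Nop56 window held CTCGCG at positions -162 and -126 from the start, and the windows of Nhp2 and Gar1 held none of these letters. A match describes the letters only and is not a measured binding site.

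**Figure D2:**
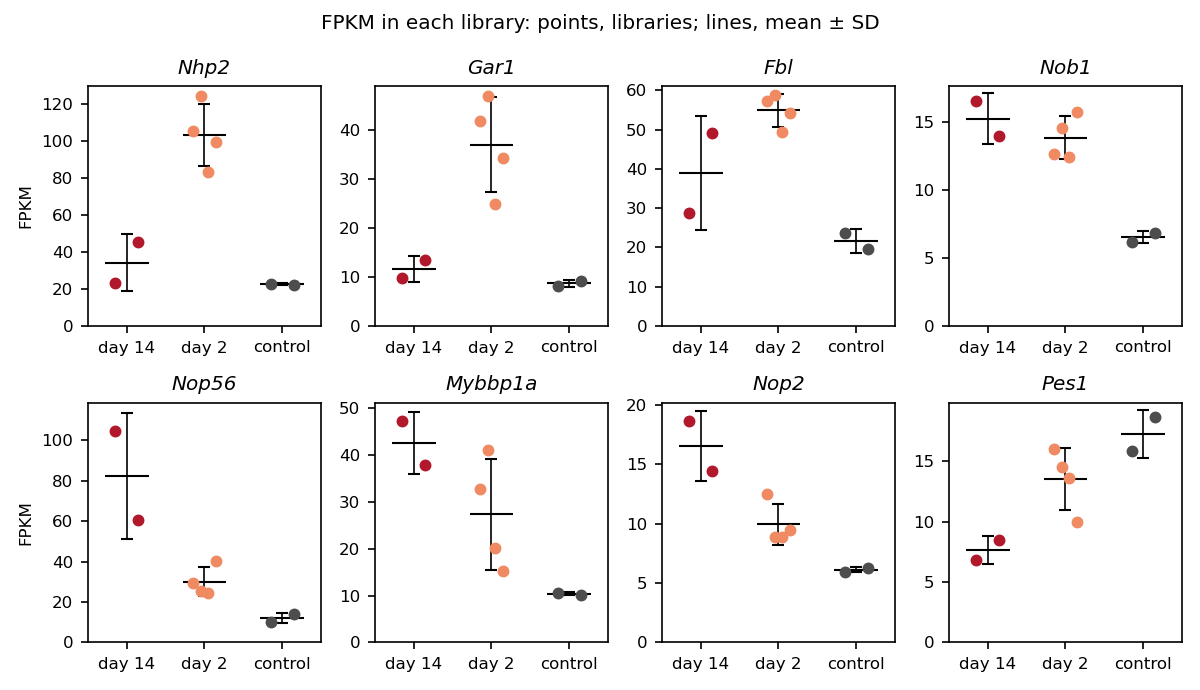
FPKM of 8 members at day 14, day 2 and in controls; points are libraries, lines the mean and bars the SD (n = 2, 4 and 2). By mean, Nhp2 and Gar1 are highest at day 2, Nop56, Mybbp1a and Nop2 are highest at day 14, and Pes1 is lowest at day 14. The day 14 and day 2 libraries of Mybbp1a overlap.

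Among the 6 nucleolar chaperones and regulators, Gnl3 was called higher at both times and Mybbp1a at day 14. Gnl3, nucleostemin, a GTPase needed for processing of the large subunit rRNA, had 26.9 and 21.5 FPKM at day 14 and 19.8, 21.4, 16.9 and 15.6 FPKM at day 2, against 10.3 and 11.3 FPKM in controls. The 3 groups did not overlap, and the difference against control was 1.09 ± 0.25 at day 14 (adjusted p = 0.037) and 0.71 ± 0.21 at day 2 (adjusted p = 0.047). Day 14 replicate 2 was only just above day 2 replicate 2. The difference between these days, 0.38 ± 0.21, was not called (adjusted p = 0.251). The day 2 call was near the threshold and was lost without any 1 of the 8 libraries, with an adjusted p of up to 0.287. Mybbp1a, a nucleolar protein that also binds transcription factors, had 47.3 and 37.8 FPKM at day 14 and 32.7, 41.2, 20.2 and 15.2 FPKM at day 2, against 10.6 and 10.1 FPKM in controls. All 6 hepatectomy libraries were above the controls, and day 2 replicates 3 and 4 were the lowest of them. Its difference was 1.93 ± 0.44 at day 14 (adjusted p = 0.037), a 3.81-fold difference in FPKM + 1. At day 2 it was 1.22 ± 0.38, where the adjusted p was 0.053. The day 14 and day 2 libraries of Mybbp1a overlapped, with a difference of 0.71 ± 0.38 between these days (adjusted p = 0.222).

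Npm1, nucleophosmin, the most abundant member over the 8 libraries, had 66.3 and 80.7 FPKM at day 14 and 91.7, 72.2, 71.9 and 86.6 FPKM at day 2, against 83.3 and 81.4 FPKM in controls. Both day 14 libraries lay just below both controls while the day 2 libraries overlapped them, and neither difference was called, at -0.17 ± 0.25 at day 14 and -0.04 ± 0.22 at day 2. Its level is uncertain because processed copies of this gene can share its reads. Ncl, nucleolin, which binds precursor rRNA, had 79.5 and 57.8 FPKM at day 14 and 73.3, 97.9, 43.3 and 50.7 FPKM at day 2, against 37.4 and 36.1 FPKM in controls. No hepatectomy library of Ncl overlapped the controls, yet the differences of 0.87 ± 0.40 and 0.76 ± 0.34 had adjusted p of 0.185 at day 14 and 0.143 at day 2. Nolc1, a chaperone of snoRNPs, differed by 0.79 ± 0.24 at day 14 (adjusted p = 0.072) and by 0.39 ± 0.21 at day 2. Ddx21, an RNA helicase of the nucleolus, differed by -0.18 ± 0.29 at day 14 and 0.05 ± 0.25 at day 2.

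Of 7 members that assemble the 40S subunit, 4 were called higher at day 2 and 1 at day 14, and all 7 differences were positive at both times. Rrp9 is a protein of the U3 snoRNP, which directs the early cleavages. Rrp9 had 13.8 and 7.87 FPKM at day 14 and 13.5, 10.7, 9.40 and 10.6 FPKM at day 2, against 4.32 and 4.93 FPKM in controls. Its difference was 1.09 ± 0.26 at day 2 (adjusted p = 0.023) and 1.03 ± 0.30 at day 14 (adjusted p = 0.063). Rrp12, which acts in nuclear export of pre-ribosomes, was the least abundant member in controls, with 3.72 and 3.80 FPKM at day 14 and 4.89, 5.14, 3.28 and 2.39 FPKM at day 2, against 1.304 and 1.53 FPKM in controls. It differed by 0.99 ± 0.27 at day 2 (adjusted p = 0.037) and by 0.98 ± 0.31 at day 14 (adjusted p = 0.082).

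Nob1, the endonuclease that makes the final cut of the small subunit rRNA, was the only 40S factor called at both times. Nob1 had 16.6 and 14.0 FPKM at day 14 and 12.6, 14.6, 12.5 and 15.7 FPKM at day 2, against 6.21 and 6.84 FPKM in controls. All 6 hepatectomy libraries thus lay in a narrow range above the controls, with a difference of 1.11 ± 0.23 at day 14 (adjusted p = 0.033) and 0.98 ± 0.20 at day 2 (adjusted p = 0.014). Bysl, bystin, which acts late in 40S maturation, had 4.53 and 5.44 FPKM at day 14 and 8.75, 6.96, 8.79 and 7.07 FPKM at day 2, against 3.89 and 4.75 FPKM in controls. It was called at day 2 (0.74 ± 0.20, adjusted p = 0.035), and its day 14 libraries overlapped the controls and lay below all day 2 libraries (-0.57 ± 0.20 against day 2, adjusted p = 0.085). Nop14, Heatr1 and Wdr43, parts of the large early particle that processes small subunit rRNA, were not called, with differences of 0.01 to 0.65 at day 14 and 0.08 to 0.39 at day 2.

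The 10 members that assemble the 60S subunit moved in both directions. At day 2 only Rrp1 was called higher, and at day 14 Nop2 was called higher and Pes1 lower. Nop2, an rRNA cytosine methyltransferase, had 18.7 and 14.4 FPKM at day 14 and 12.5, 8.88, 8.87 and 9.51 FPKM at day 2, against 5.96 and 6.29 FPKM in controls. The 3 groups did not overlap, and the difference was 1.29 ± 0.25 at day 14 (adjusted p = 0.030) and 0.61 ± 0.22 at day 2 (adjusted p = 0.079). That of 0.68 ± 0.22 between these days was not called (adjusted p = 0.065). Rrp1, an early factor of the large subunit, had 32.2 and 33.1 FPKM at day 14 and 51.2, 50.9, 50.3 and 46.4 FPKM at day 2, against 27.9 and 29.2 FPKM in controls. Its day 2 libraries agreed closely and lay above all others, with a difference of 0.78 ± 0.18 (adjusted p = 0.023), against 0.19 ± 0.21 at day 14. Day 14 and day 2 differed by -0.59 ± 0.18 for Rrp1 (adjusted p = 0.061).

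Pes1, Bop1 and Wdr12 form the PeBoW complex, which is needed for maturation of the large subunit rRNAs. Pes1, pescadillo, had 6.85 and 8.47 FPKM at day 14 and 16.0, 14.5, 13.6 and 9.92 FPKM at day 2, against 15.8 and 18.6 FPKM in controls. It fell at day 14 by 1.08 ± 0.27 on the log2 scale against control (adjusted p = 0.046) and was the only member called lower than control. Bop1 had 8.19 and 7.93 FPKM at day 14 and 16.9, 10.6, 19.4 and 11.6 FPKM at day 2, against 9.53 and 10.2 FPKM in controls. Bop1 was thus lowest at day 14 and highest at day 2 with no overlap, but its differences of -0.26 ± 0.31 at day 14 and 0.48 ± 0.27 at day 2 were not called, nor was that of -0.75 ± 0.27 between these days (adjusted p = 0.090). Wdr12, at 5.30 and 6.61 FPKM at day 14 and 4.53 to 7.00 FPKM at day 2, against 4.91 and 5.40 FPKM in controls, overlapped in every comparison.

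The other 5 members of the 60S group were not called. Ebna1bp2 and Nip7, which act on early 60S particles, and Rrs1, which helps to place the 5S rRNA, lay above both controls in all 4 day 2 libraries, with differences of 0.81 ± 0.28, 0.67 ± 0.28 and 0.76 ± 0.26 and adjusted p of 0.072, 0.127 and 0.071. At day 14 those differences were 0.32 ± 0.32, 0.19 ± 0.33 and 0.72 ± 0.30. Brix1 and Nop16, further 60S assembly factors, differed by -0.43 ± 0.30 and -0.30 ± 0.30 at day 14, where both lay below the controls, and by -0.12 ± 0.26 and -0.28 ± 0.26 at day 2.

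**Figure D3:**
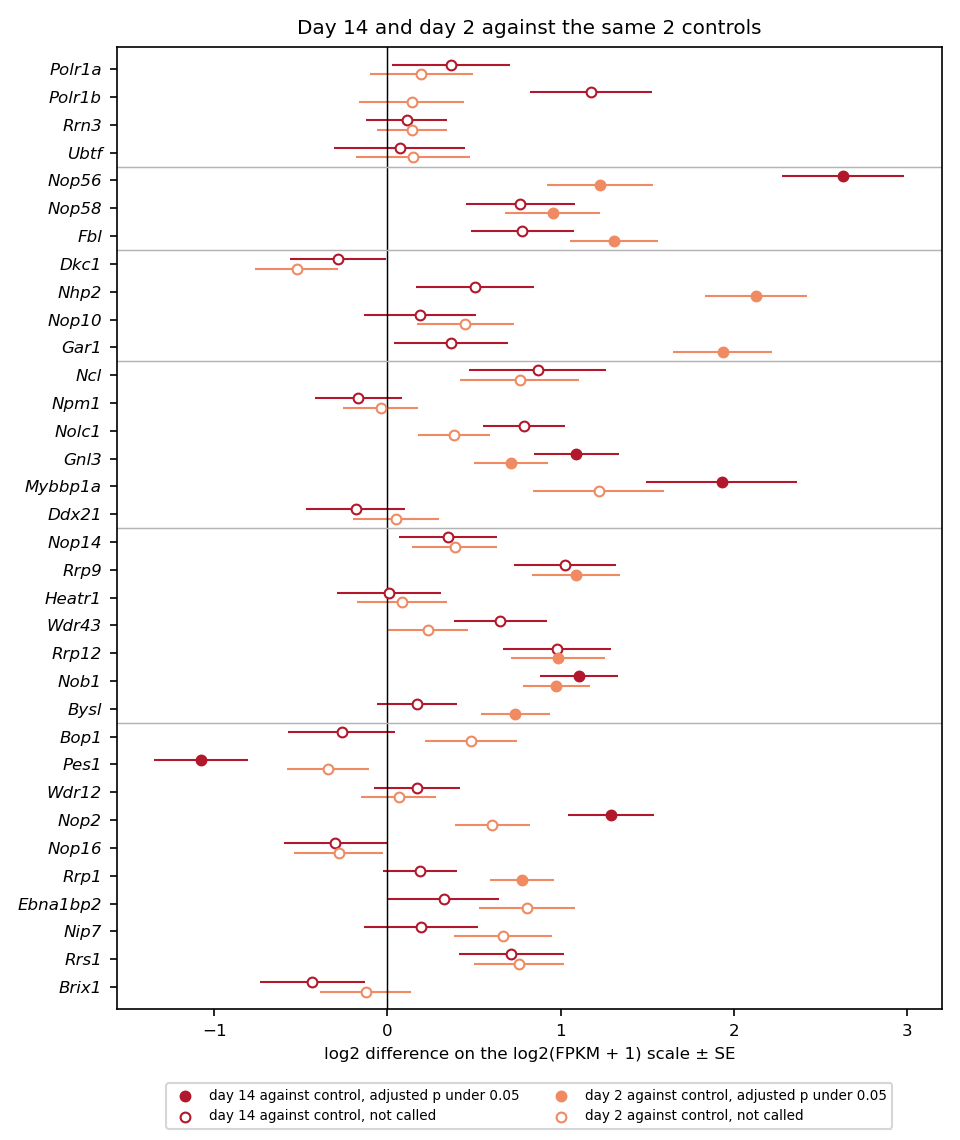
Log2 difference ± SE of each member at day 14 (dark red) and day 2 (orange) against the same 2 controls; filled points passed an adjusted p under 0.05. Box C/D, box H/ACA and 40S members hold 9 of the 11 calls at day 2, and Pes1 at day 14 is the one filled point below 0.

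The RefSeq promoter table used here held windows for 29 members, and none under the symbols Fbl, Bop1, Npm1, Rrp12 and Rrs1. CACGTG occurred in 5 of the 29 (17.2%), Mybbp1a, Nop2, Pes1, Rrn3 and Wdr43, against 8.09% of 27025 genes with such windows and 11.8% of the 9056 of them that were tested. CGCGAG or CTCGCG, whose letters cannot overlap a CACGTG match and which was likewise read on both strands, occurred in 9 (31.0%), against 12.3% and 23.7%. Either of these different words counted as a match, while CACGTG is a single word. The shares of the motifs are therefore not matched to each other. The windows of Nop2 (chr6:125131633-125131932, plus strand) and Mybbp1a (chr11:72441077-72441376, plus strand) are shown because both genes were called higher at day 14 and both hold CACGTG, which Pes1, called lower at day 14, holds as well.
Nop2: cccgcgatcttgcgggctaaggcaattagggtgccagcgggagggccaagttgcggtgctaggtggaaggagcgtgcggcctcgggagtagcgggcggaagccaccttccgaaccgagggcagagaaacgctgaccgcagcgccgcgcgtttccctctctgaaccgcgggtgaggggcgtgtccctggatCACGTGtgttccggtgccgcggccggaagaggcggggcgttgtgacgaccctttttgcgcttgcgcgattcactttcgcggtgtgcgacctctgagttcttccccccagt
Mybbp1a: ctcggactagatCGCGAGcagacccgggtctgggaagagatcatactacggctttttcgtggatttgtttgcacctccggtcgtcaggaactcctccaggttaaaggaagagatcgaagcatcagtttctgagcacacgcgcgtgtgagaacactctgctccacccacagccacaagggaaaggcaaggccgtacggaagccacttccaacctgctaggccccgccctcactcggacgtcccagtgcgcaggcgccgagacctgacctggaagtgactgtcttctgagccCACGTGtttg
In Nop2 the E-box began 60 bases before the start, and in Mybbp1a it began 40 bases after it. The window of Mybbp1a also held CGCGAG, at -238. Nop56, Gnl3 and Nob1, the other members called higher at day 14, had windows without CACGTG. Of the members called higher at day 2, none with a window held CACGTG.

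Myc itself had 3.79 and 6.98 FPKM at day 14 and 9.82, 8.13, 4.89 and 5.18 FPKM at day 2, against 3.02 and 1.49 FPKM in controls. It was called higher at day 2 (1.29 ± 0.35, adjusted p = 0.036) and not at day 14 (0.97 ± 0.41, adjusted p = 0.156). All 6 hepatectomy libraries were above both controls. Day 2 replicates 1 and 2, which had the highest summed level of the 34 members, also had the highest Myc. Day 14 replicate 2 had more Myc than day 2 replicates 3 and 4, with member sums of 725.2 against 724.7 and 748.4 FPKM. Max had 18.2 and 16.9 FPKM at day 14 and 9.77 to 14.5 FPKM at day 2, against 8.94 and 9.86 FPKM in controls. Mycn ranged from 0 to 1.74 FPKM. Whether Myc acted on the members was not tested.

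A further 127 genes of the same pathway were read for comparison, from a list of 137 symbols. At day 14 against control 16 were called higher (12.6%, beside 5.21% of all genes) and 1 lower (0.787%, beside 4.58%), Skiv2l2, the helicase of the nuclear exosome. At day 2 against control 15 were called higher (11.8%) and 0 lower, a share near the 9.72% of all genes. For day 14 against day 2, 8 were called higher (6.30%) and 7 lower (5.51%), below the 9.09% and 7.03% of all genes. Their medians were 0.37, 0.40 and -0.08. The largest called differences at day 2 against control belonged to Eif6, Ppan and Mrto4, all 60S factors. Eif6, which keeps the large subunit from joining the small one too early, had 8.35 and 21.0 FPKM at day 14 and 225.6, 254.3, 113.1 and 107.4 FPKM at day 2, against 30.5 and 29.6 FPKM in controls. It was high in all day 2 libraries and below the controls at day 14, with a difference of 2.40 ± 0.47 at day 2 (adjusted p = 0.012) and of -3.51 ± 0.47 for day 14 against day 2 (adjusted p = 0.0055).

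Ppan had 94.9 and 57.9 FPKM at day 14 and 49.3, 33.9, 19.4 and 22.2 FPKM at day 2, against 9.32 and 8.25 FPKM in controls. All 3 groups were apart, with the highest levels at day 14, and the differences were 2.94 ± 0.45 at day 14 (adjusted p = 0.020) and 1.63 ± 0.39 at day 2 (adjusted p = 0.024). Mrto4 differed by 1.35 ± 0.22 at day 2 (adjusted p = 0.0072), and at day 14 the 40S factors Wdr75 and Ddx49 differed by 1.69 ± 0.26 and 1.66 ± 0.34 against control. For day 14 against day 2 the differences were -1.62 ± 0.36 for Imp4, of the U3 particle, and 1.502 ± 0.30 for Ttf1, which ends RNA polymerase I transcription. Imp4 had 3.69 and 4.12 FPKM at day 14 and 9.45 to 24.3 FPKM at day 2, against 11.9 and 15.7 FPKM in controls, so both day 14 libraries were below all others.

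**Figure D4:**
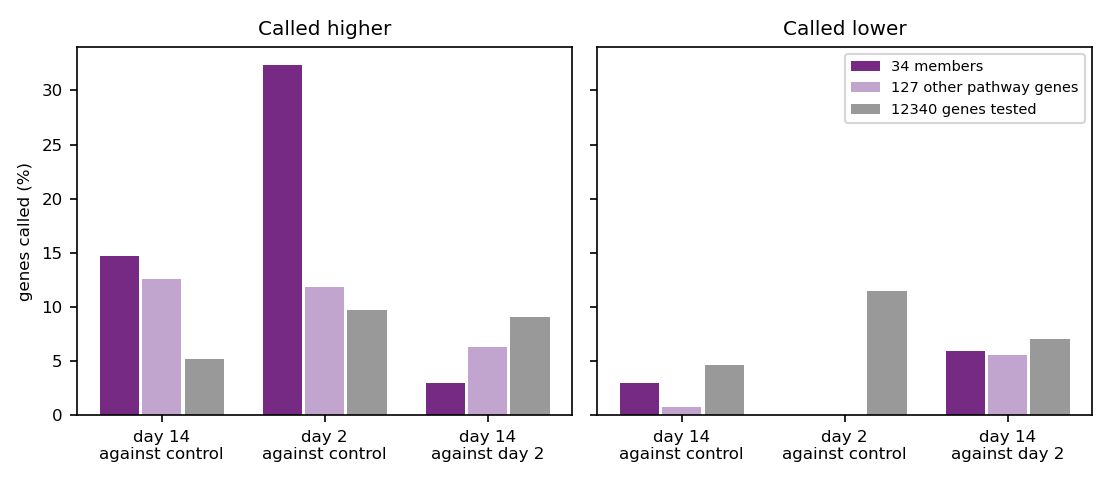
Share of genes called higher (left) and lower (right) in each comparison, for the 34 members, 127 other pathway genes and all 12340 genes tested. At day 2 against control 32.4% of members were called higher, against 11.8% of the other pathway genes and 9.72% of all genes.

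Short transcripts were higher after hepatectomy across all genes. The median difference against control was 0.53 at day 14 and 0.59 at day 2 in the eighth of genes with the shortest transcripts, and -0.26 and -0.34 in the eighth with the longest. Nhp2 and Gar1 have transcripts of 1042 and 1271 bases. The median transcript of the members had 2730.5 bases, against 2581 for all genes. Across the 34 members the Spearman correlation of length with the difference against control was -0.06 at day 14 and -0.35 at day 2, beside -0.28 and -0.30 over all genes, where genes are not independent. After removal of each library's trend with length and GC content, the medians of the members were 0.47 at day 14 and 0.53 at day 2, beside 0.02 and 0.08 over all genes.

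Fewer genes were called higher against control after this removal, 271 of all genes at day 14 and 746 at day 2, against 643 and 1200 before it. At day 2, 9 members were called higher. Fbl (0.77 ± 0.23, adjusted p = 0.059), Rrp9 (0.60 ± 0.24, adjusted p = 0.131) and Rrp1 (0.49 ± 0.17, adjusted p = 0.1002) were no longer among them, and Ncl was called (1.31 ± 0.33, adjusted p = 0.038). Nhp2 stood at 1.66 ± 0.26 (adjusted p = 0.0089) and Gar1 at 1.41 ± 0.26 (adjusted p = 0.014). At day 14, 3 were called higher, Nop56, Mybbp1a and Nop2, and none lower, with Pes1 at -0.88 ± 0.27 (adjusted p = 0.092), Gnl3 at 1.27 ± 0.29 (adjusted p = 0.052) and Nob1 at 0.98 ± 0.24 (adjusted p = 0.056). For day 14 against day 2, Polr1b (1.09 ± 0.29, adjusted p = 0.041) and Nop2 (0.76 ± 0.20, adjusted p = 0.040) joined Nop56 as higher, and Nhp2 and Gar1 were again the 2 called lower.

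**Figure D5:**
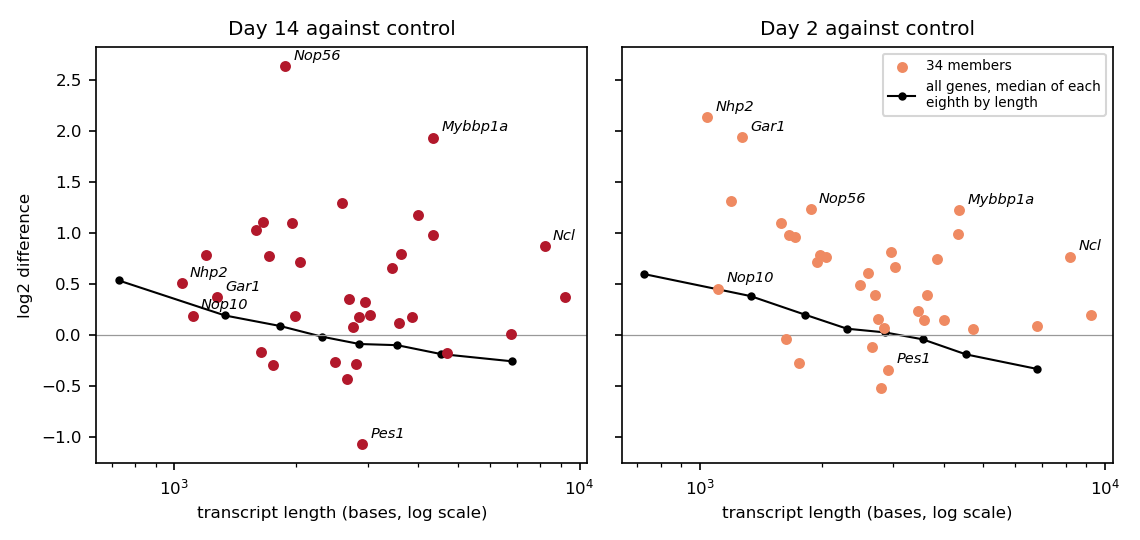
Log2 difference against control of the 34 members (points) by transcript length, at day 14 (left) and day 2 (right); the black line joins the medians of all genes in 8 equal groups by length. The line falls with length at both times, and most members lie above it.

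Markers of other liver cells also moved. The summed neutrophil markers were 15.7 and 68.0 FPKM at day 14 and 140.0, 321.1, 87.2 and 31.8 FPKM at day 2, against 4.21 and 7.82 FPKM in controls. Of the 4 tested among 6 listed, 3 were called higher at day 2, and Ly6g was at 0 in some library. Endothelial markers summed to 21.7 and 40.04 FPKM at day 14 and 20.8 to 65.1 FPKM at day 2, against 73.7 and 78.2 FPKM in controls, and of 6 tested 2 were called lower at day 14 and 1 at day 2. Leukocyte markers summed to 65.8 and 84.3 FPKM at day 14 and 58.7 to 138.8 FPKM at day 2, against 94.5 and 131.8 FPKM in controls, with Cd3e, Cd79a and Nkg7 at 0 in some library. Of 10 leukocyte markers tested 3 were called lower at day 14 and 2 at day 2. Stellate cell markers summed to 30.6 and 50.3 FPKM at day 14 and 61.6 to 156.3 FPKM at day 2, against 59.5 and 61.6 FPKM in controls, and cholangiocyte markers to 4.94 and 5.52 FPKM at day 14 and 3.998 to 19.97 FPKM at day 2, against 3.25 and 3.96 FPKM in controls. The part of these cells in the changes of the 34 members was not tested.

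Several calls rest on few libraries or lie near the threshold. Over the alternatives tried, the day 2 calls of Nhp2, Gar1 and Nob1 were kept in 15 of 17 each, those of Nop58 in 8 of 17, Rrp12 in 8 of 16 and Gnl3 in 5 of 17, and the day 14 call of Pes1 in 7 of 17. With either control left out, no member was called in the comparisons with control. The median difference of the members at day 2 was then 0.49 without control replicate 1 and 0.59 without control replicate 2. The loss of calls ran across the genome. Without day 2 replicate 1, 6 members were called at day 2, against 783 of all genes called higher. Without day 14 replicate 1 no gene at all was called at day 14 against control, where the median difference of the members was 0.56. Against day 2 no member was called without that library, and of all genes 15 were called higher and 2 lower. Exons of 10 members overlap a gene on the other strand, from 0.26% of exon bases in Nop56 to 9.37% in Bysl, with 4.03% in Nhp2 and 4.72% in Pes1. Whether the authors counted by strand is not given in the sources used here, so such reads cannot be told apart.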

How the data were processed

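Liver RNA libraries were made with a TruSeq RNA kit, per the labels' protocols. The authors deposited 1 table of gene FPKM values with a column for each library. Per the submitters' processing notes the tools were HISAT2 2.10, Cufflinks 2.2.1, HTSeq and DESeq2, with the builds GRCm38 and mm9 in no stated role. Which of these made the FPKM table is not given in the sources used here. FPKM hold no counts, so depth and counting intervals are unknown.

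Values were transformed to log2(FPKM + 1), and the 12340 genes at 1 FPKM or more in 2 or more libraries were fitted with 3 group means in limma 3.58.1 (R 4.3.3) with a mean-variance trend. P-values were adjusted by Benjamini-Hochberg over all genes tested, in each comparison, and genes were called at an adjusted p under 0.05. The method was also run on simulated data with the same spread for every gene, which cannot show that the calls hold in these data. Transcript lengths, GC content and overlaps came from GENCODE M21 on GRCm38 (12307 genes matched) and promoters from a RefSeq table. The trend with length and GC was removed per library by splines with 4 df. Day 14 and day 2 share their controls.

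Values in every library were given for members called in any comparison, the 3 of largest difference in each and the most abundant of each role group. Dkc1, Nop10, Ncl, Polr1b, Bop1 and Wdr12 were added after their values were seen, and so were Myc and Nhp2l1. Of other pathway genes the 3 largest called ones per comparison with a mean of at least 5 FPKM were named by rule. Skiv2l2, Wbscr22, Trmt112, Cd3eap, Polr1e and Exosc4, which were also called, were named outside this rule. Members, lists and tests were chosen with earlier results of these data known. Alternatives were a pseudocount of 0.1, a filter at 5 FPKM or none, quantile or median-ratio scaling, a fit of the compared groups alone, no mean-variance trend, trend removal and leaving out each library. Figures were drawn with matplotlib 3.10.9.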

Additional observations from a re-analysis of the deposited data

Results flagged for a closer look

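The 34 members and the other pathway genes named by rule for their large differences were compared between day 14 and day 2. For 7 of them the effect against control differed by limma's test of day 14 against day 2 at an adjusted p under 0.05. Among the 34 members this difference was 1.41 for Nop56, -1.62 for Nhp2 and -1.57 for Gar1 on the log2 scale. Among those other pathway genes it was 1.502 for Ttf1, 1.09 for Wdr75, -1.62 for Imp4 and -3.51 for Eif6. Ttf1 and Imp4 were named only because they were called in this same comparison, and Eif6 partly so. Their place among the 7 was thus fixed in advance. Of all genes tested, 9.09% were called higher and 7.03% lower at day 14 against day 2. Nhp2l1, named outside the rule, was also called lower at day 14 than at day 2 and lies outside this count. No member had a day 2 library that stood far from the other 3 by Dixon's test, which chance alone flags in about 1 of 20 groups.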

How the results depend on the processing

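No paired analysis was possible because no 2 groups share more than 1 number: the titles of day 14 replicate 1 and day 2 replicate 1 both begin with 2, the meaning of which is not given, and the other operated libraries carry 6, 3, 7 and 8. No called member changed direction under any alternative tried. Uncalled differences changed sign with the trend removed for Gar1 (-0.04), Ddx21 (0.17) and Rrp1 (-0.01) at day 14 and for Npm1 (0.14) and Brix1 (0.27) at day 2 against control, and for Ncl, Rrp9, Rrp12, Nop16 and Rrs1 at day 14 against day 2 (-0.05 to 0.07). Under the other alternatives uncalled members were not followed one by one. Against the 11 members called higher at day 2, 7 were called with no filter and 0 to 11 when 1 library was left out. Against the 5 called higher at day 14, 3 were called with the length and GC trend removed and 0 to 6 with a library left out. The 1 called lower there became 0 with a pseudocount of 0.1, with no filter and with the trend removed by transcript or by coding length, and 0 to 1 with a library left out. For day 14 against day 2, the 1 called higher became 2 with the filter at 5 FPKM, 3 with the trend removed, 2 with the trend removed by coding length and 0 to 2 with a library left out, and the 2 called lower became 0 to 3. The median at day 14 against control, 0.36, was 0.18 without day 14 replicate 2 and 0.56 without day 14 replicate 1. The cause of these changes was not tested. The alternative with coding length was chosen after seeing the data, since annotated transcripts of some members, such as Ncl (8202 bases, 2121 of them coding), are long. Of the calls of single members, 248 of 339 tests under alternatives kept their call. The calls for Nop56, Nhp2 and Gar1 at day 14 against day 2 were lost only without day 14 replicate 1. With 2 libraries in a group, these data limit the precision of every comparison, and the unknown depth gives no counting error for low members such as Rrp12.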

Other observations

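Within the other pathway genes, RNA polymerase I subunits and factors (11 genes) had a median log2 difference of 0.84 at day 14 and 0.52 at day 2 against control, with 2 and 1 called higher, Cd3eap and Polr1e at day 14 and Polr1e at day 2. Genes of snoRNP assembly and rRNA modification (17) had 3 called higher at each time, among them Wbscr22, a methyltransferase of the small subunit rRNA, and Trmt112, its partner, at both times. Wbscr22 differed by 1.65 at day 14 and 0.93 at day 2, and Trmt112 by 0.89 and 0.90. Exosome genes (14) had 2 called higher at each time, with Exosc4 at both. Genes of 60S assembly (46) had 5 called higher at day 14 (10.9%) and 6 at day 2 (13%). Those of 40S assembly (39) had 4 (10.3%) and 3 (7.69%). The shares were 18.2% and 9.09% for RNA polymerase I, and at each time 17.6% for snoRNP assembly and 14.3% for the exosome. Of all genes 5.21% were called higher at day 14 and 9.72% at day 2. The day 2 shares of 40S assembly and RNA polymerase I thus lay under that of all genes.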
